A study of Arabidopsis thaliana with 24 samples.

Results

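Transcript levels in sorted root epidermal cells of the Arabidopsis thaliana mutants cpc and egl3 were compared over 21440 genes, which is every gene of the deposited table once its control entries were set aside. The comparison used the 3 arrays titled cpc mutant and the 3 titled egl3 mutant, 6 of the 24 arrays in the series, and the other 18 served to estimate the spread. The cpc plants were cpc-1 WER::GFP and the egl3 plants egl3-1 WER::GFP. The remaining lines were gl3-1, myb23-1, try-82, ttg2-1, wer-1 and cpc-1 ttg2-1, and these carried WER::GFP as well. WER::GFP is a reporter in which the promoter of WEREWOLF drives green fluorescent protein, and since that promoter is active in developing epidermal cells and also in the lateral root cap, both could be sorted. Seedlings of every line were 5 days old and were grown in continuous light on medium with sucrose. The root was cut about 2 mm from its tip, and the labels call each line's 3 arrays biological replicates. No wild-type array was used, so each difference is between 1 mutant and another and does not show which of them departs from normal.

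In the Arabidopsis root, epidermal cells take a hair or a non-hair fate by their position. In future non-hair cells the MYB factor WEREWOLF (WER) works with the bHLH factors GLABRA3 (GL3) and ENHANCER OF GLABRA3 (EGL3) and the WD40 protein TTG1 to switch on GLABRA2 (GL2), a homeodomain factor that blocks hair growth. The same complex switches on CAPRICE (CPC), a small single-repeat MYB protein that moves to neighbouring cells, competes with WER for the bHLH partner and so allows the hair fate. Plants that lack CPC make few root hairs, and EGL3 shares much of its role with GL3. The comparison of cpc with egl3 thus sets a line mutant for an inhibitor of the complex beside a line mutant for a part of it.

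All levels below are log2 values from robust multi-array averaging (RMA), so a difference of 1 is a doubling, and every difference is cpc minus egl3. A gene was called when its p-value from limma, adjusted over all 21440 genes with the Benjamini-Hochberg (BH) method, was under 0.05. Errors of differences are standard errors (SE) of that fit. Precision is limited by the number of arrays, and without detection calls a level near the bottom of the range, which ran from 2.01 to 13.6, is not shown to be a present transcript.

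The arrays were not alike in technical terms. Over 18 hybridisation control entries, replicate 1 of both lines was dim, with a mean level of 8.54 in cpc and 8.15 in egl3, against 11.03 to 11.67 in the other cpc arrays and 11.20 to 11.50 in the other egl3 arrays. Replicate 1 of gl3 (8.60) and of wer (9.39) were also dim, and the other 20 arrays lay at 10.5 or above. The lowest correlation between arrays of a line in the series, 0.918, was in cpc. The mean of 77 mitochondrial entries was 4.95, 5.90 and 7.13 in cpc and 5.52, 6.56 and 6.42 in egl3, and 25S ribosomal RNA was 8.04, 9.72 and 8.75 in cpc and 9.60, 11.35 and 9.68 in egl3. The arrays labelled cpc ttg2 carry a doubt about their label, since TTG2 stood at 8.25 in them and at 4.35 in ttg2. They share the fit, and without them 578 genes were called.

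CPC and EGL3 transcripts were read first, as a partial check of the labels, because a mutation need not lower its transcript. CPC (AT2G46410) stood at 10.42, 9.60 and 9.62 in the cpc arrays and at 10.55, 10.93 and 10.69 in the egl3 arrays. All cpc arrays lay below all egl3 arrays, but the difference of -0.84 ± 0.30 (SE, n = 3) did not pass (adjusted p = 0.13). Without cpc replicate 1, the highest of the 3 cpc arrays, it passed at -1.11 (adjusted p = 0.0375). EGL3 (AT1G63650) stood at 6.86, 6.42 and 5.03 in cpc and at 7.49, 6.46 and 8.14 in egl3. The arrays overlapped, with egl3 replicate 2 below cpc replicate 1, and the difference of -1.26 ± 0.50 did not pass (adjusted p = 0.161). The EGL3 transcript was therefore not lower in egl3 than in cpc, and its mean there (7.36) lay within the range of the lines gl3, myb23, try, ttg2 and wer (6.27 to 7.59).

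Between the lines, 607 of 21440 genes were called (2.83%), of which 303 were higher in cpc (1.41%) and 304 lower (1.42%). Of these, 515 differed by more than 1, 180 by more than 2 and 54 by more than 3, and among the 54 there were 31 higher and 23 lower. The median difference was 1.68 over the genes called higher, -1.37 over those called lower and -0.02 over all genes. The 3 arrays of each line did not overlap in 601 of the 607, beside 4610 of all genes (21.5%, with 8.93% higher in cpc and 12.6% lower). Unadjusted p was under 0.05 for 4599 of the 21440 genes. When each array was centred on its median, the median of all genes moved by 0.15 and the calls became 417 higher and 207 lower, so the even split depends on how the arrays are scaled.

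The number of calls depended strongly on which arrays were fitted. A fit of the 6 cpc and egl3 arrays alone called 88 genes, 85 of them among the 607. Without cpc replicate 1, which has dim hybridisation controls, 1958 genes were called. Without egl3 replicate 1, which was dim as well, there were 679, of which 435 were among the 607. Without cpc replicate 2, cpc replicate 3, egl3 replicate 2 or egl3 replicate 3 there were 324, 232, 296 and 319. Without the 4 dim arrays 1223 genes were called and 501 of the 607 were among them, and with dim controls as a block 875 were called, including all 607. The arrays of replicate 1 alone, 1 against 1, allow no test. In all 6 runs that left out 1 array, 181 genes held their call, 104 higher and 77 lower in cpc.

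**Figure D1:**
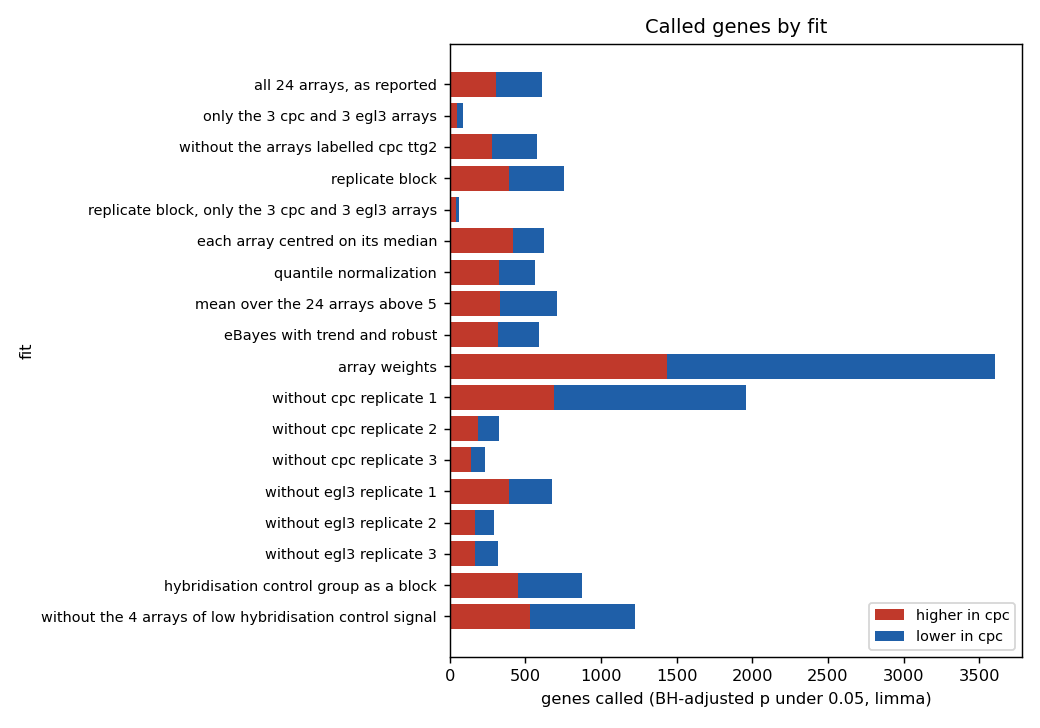
Number of genes called between cpc and egl3 under each fit (horizontal axis, genes with BH-adjusted p under 0.05 in limma), split into higher in cpc (red) and lower in cpc (blue). The fit of all 24 arrays gives 607, the fit of the 6 arrays alone 88, and the fit with estimated array weights 3605.

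The 8 largest differences in each direction ran from 4.79 to 6.81 above egl3 and from -4.17 to -6.19 below it. Among the 8 genes most above egl3 in cpc, AT2G15555 stood at 10.73, 11.93 and 11.79 in cpc and at 4.64, 4.88 and 4.52 in egl3, a difference of 6.81 ± 0.67 (112-fold, adjusted p = 3.48e-06). Its level in the arrays labelled cpc ttg2 was also high (10.66), while the other 5 lines lay between 4.28 and 5.22. AT5G46670 had the same pattern, with 8.11, 8.12 and 8.86 in cpc and 2.87, 2.78 and 3.23 in egl3 (difference 5.40 ± 0.37, adjusted p = 1.58e-08). The arrays labelled cpc ttg2 averaged 7.26 for it and the other 5 lines between 3.09 and 3.42. For these genes the lines with a cpc label stood apart from all lines without one.

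In this set CYP89A5, CYP705A27, AT1G51430 and AT4G27400 were low in egl3 and high in the other lines. CYP89A5 (AT1G64950), which encodes a cytochrome P450, stood at 10.27, 10.85 and 11.61 in cpc and at 5.38, 5.85 and 5.80 in egl3 (difference 5.24 ± 0.34, adjusted p = 4.46e-09). The 5 other lines lay between 10.16 and 11.27, near cpc. CYP705A27 (AT1G50520), another cytochrome P450, stood at 7.88, 7.70 and 7.78 in cpc and at 2.96, 2.56 and 2.94 in egl3 (difference 4.97 ± 0.20, adjusted p = 1.94e-12), with the other 5 lines between 7.35 and 7.97. AT1G51430 (difference 5.23 ± 0.28) and AT4G27400 (5.11 ± 0.50) were likewise low only in egl3, whose means were 3.35 and 7.29, against line means of 8.83 or more and 11.65 or more in the other 5 lines. Within egl3, AT4G27400 was uneven, at 7.29 ± 1.58 (SD, n = 3) with replicate 1 highest at 9.05. AT2G01090 (5.10 ± 0.27) was at 4.84 in egl3, at 6.16 in try and at 8.91 or more in gl3, myb23, ttg2 and wer. AT5G40960 (4.79 ± 0.72) was at 8.68 in cpc, at 3.89 in egl3 and between 4.01 and 5.43 in the other 5 lines, all nearer egl3.

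Among the 8 genes most below egl3 in cpc, a neighbouring pair on chromosome 5 was low in cpc alone. AT5G51620 stood at 3.36, 3.02 and 3.06 in cpc and at 9.37, 9.23 and 9.26 in egl3 (difference -6.14 ± 0.21, adjusted p = 2.13e-13, the lowest of all genes). AT5G51630 stood at 3.10, 2.90 and 2.48 in cpc and at 7.84, 8.72 and 8.01 in egl3 (difference -5.36 ± 0.28, adjusted p = 1.51e-10). The 5 other lines lay between 8.80 and 9.27 for the former and between 7.29 and 8.66 for the latter. The arrays labelled cpc ttg2, which share the cpc-1 label, stood at 7.91 and 8.66. A low level of this pair was therefore not shared by both lines labelled cpc-1.

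For each of the other 6 genes of the lower set, try had the lowest mean of the 5 other lines. AT5G43030 stood at 2.40, 2.33 and 2.34 in cpc and at 8.97, 8.02 and 8.66 in egl3 (difference -6.19 ± 0.95, adjusted p = 0.000717), and AT5G43040 stood at 3.21, 2.85 and 2.90 in cpc and at 8.81, 7.38 and 7.77 in egl3 (difference -5.00 ± 0.87, adjusted p = 0.00244). In try both were low (3.10 and 3.25), and the gl3 arrays varied widely, with means of 4.57 ± 3.48 (SD, n = 3) and 4.76 ± 3.02. AT5G26270 (difference -5.16 ± 0.63) and AT4G13860 (-4.17 ± 0.30) were at 3.07 and 4.80 in cpc and at 3.42 and 4.42 in try. AT5G43520 (-4.75 ± 0.70) was at 3.74 in cpc, 5.90 in try and 6.29 in wer. AT5G56380 (-4.40 ± 0.64) was at 3.28 in cpc, 3.50 in try, 4.31 in gl3 and 4.11 in the arrays labelled cpc ttg2. All 16 genes of both sets kept their call in all 6 runs that left out 1 array.

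**Figure D2:**
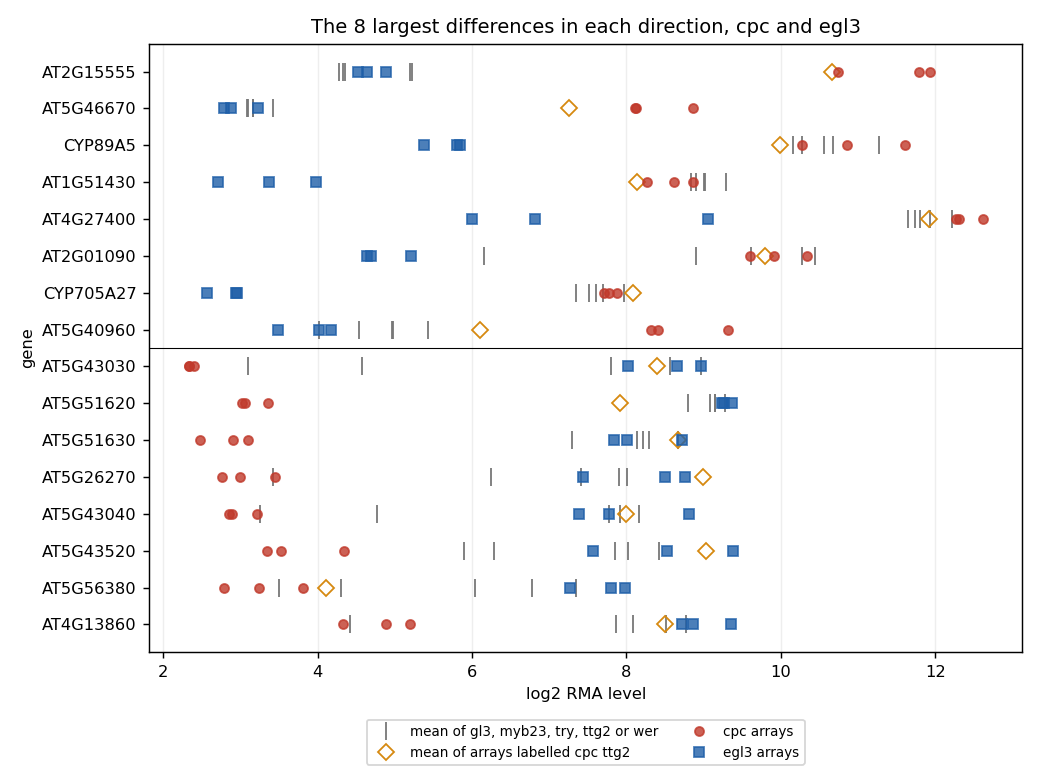
Log2 RMA levels (horizontal axis) of the 8 genes with the largest difference in each direction, with the cpc arrays as red circles, the egl3 arrays as blue squares, the mean of the arrays labelled cpc ttg2 as orange diamonds and the means of the other 5 lines as grey ticks. Genes above the line were higher in cpc and genes below it lower, and the 2 lines do not overlap for any of the 16.

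Where cpc and egl3 lay among gl3, myb23, try, ttg2 and wer was then described for all 607 genes. The cpc mean was farther than the egl3 mean from the mean of the 5 line means for 175 of the 303 genes higher in cpc and for 175 of the 304 lower. All 5 lines were nearer egl3 for 108 genes, 53 higher and 55 lower in cpc, and the arrays labelled cpc ttg2 were nearer cpc for 70 of them. All 5 lines were nearer cpc for 77 genes, 47 higher and 30 lower, and for 69 of these the arrays labelled cpc ttg2 were nearer cpc as well. For the other 422 genes the 5 lines were mixed, with ttg2 nearer cpc for 360 of the 607 and myb23 and try for 235 each.

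Members of the epidermal fate pathway were read next. Of 15 measured patterning genes, 1 was higher in cpc, 1 was lower and 13 were not called (13.3% called, beside 2.83% of all genes), with a median difference of -0.12. ETC1 (AT1G01380), a single-repeat MYB protein related to CPC, stood at 8.36, 8.76 and 8.53 in cpc and at 6.90, 6.05 and 7.71 in egl3, so the arrays did not overlap. It was 1.66 ± 0.44 higher in cpc (3.17-fold, adjusted p = 0.0459), and among the other lines it ran from 6.80 in wer to 9.24 in ttg2 and 10.23 in the arrays labelled cpc ttg2. MYC1 (AT4G00480), a bHLH factor related to GL3 and EGL3, stood at 6.51, 6.51 and 4.93 in cpc and at 8.90, 6.77 and 8.87 in egl3. The lowest egl3 array was only just above the cpc arrays, and the difference was -2.20 ± 0.58 (4.60-fold, adjusted p = 0.0457). The 5 other lines lay between 7.66 and 8.77, near egl3, and the arrays labelled cpc ttg2 at 4.92, near cpc.

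Both calls were near the threshold. ETC1 lost its call without cpc replicate 2, cpc replicate 3, egl3 replicate 1 or egl3 replicate 2 (adjusted p up to 0.17), and MYC1 without cpc replicate 2, cpc replicate 3, egl3 replicate 1 or egl3 replicate 3 (up to 0.273). In the fit of the 6 arrays alone, the adjusted p was 0.219 for ETC1 and 0.296 for MYC1. Centring the arrays or quantile normalization also ended the call of MYC1, as did leaving out the 4 dim arrays (-2.11, adjusted p = 0.0727), and leaving out the arrays labelled cpc ttg2 ended that of ETC1.

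GL2 and TTG2, outputs of the non-hair complex, were not called. GL2 (AT1G79840) stood at 10.04, 9.54 and 8.27 in cpc and at 9.13, 7.44 and 8.76 in egl3, with overlapping arrays and a difference of 0.84 ± 0.47 (adjusted p = 0.295). TTG2 (AT2G37260), a WRKY factor activated by the same complex, differed by 0.49 ± 0.31 (adjusted p = 0.356), and MYB23 (AT5G40330), a MYB factor that backs up WER, by -0.12 ± 0.38 (adjusted p = 0.881), a sign that turned when the arrays were centred or quantile normalised. WER (AT5G14750) itself differed by -0.17 ± 0.25 (adjusted p = 0.711) and was at 11.26 ± 0.21 (SD, n = 3) in cpc and 11.42 ± 0.10 in egl3. TTG1 (AT5G24520) differed by -0.36 ± 0.22, and the single-repeat MYB genes TRY and ETC2 by 0.33 ± 0.48 and 0.79 ± 0.59, with ETC2 low in both lines (4.63 and 3.84).

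Genes that pass positional cues to the epidermis were not called either. The receptor-like kinase gene SUB, also known as SCRAMBLED, differed by -0.19 ± 0.47, and QKY, which encodes a membrane protein that acts with it, by -1.02 ± 0.49 with overlapping arrays. JKD (AT5G03150), a zinc finger factor that acts from the cortex, stood at 6.49, 5.86 and 5.97 in cpc and at 5.66, 4.97 and 5.33 in egl3. Its arrays did not overlap, but the difference of 0.78 ± 0.37 did not pass (adjusted p = 0.227). Outside this group, PLDP1, a phospholipase D gene of the patterning list, differed by -0.05 ± 0.17. GL3 and CPL3 were not among the measured genes.

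RHD6 (AT1G66470), the bHLH factor that initiates hairs, was lower in cpc. It stood at 8.46, 8.53 and 7.62 in cpc and at 9.49, 9.75 and 9.86 in egl3, with every cpc array below every egl3 array. The difference was -1.50 ± 0.34 (2.83-fold, adjusted p = 0.0221), and the 5 other lines lay between 8.97 in try and 10.53 in wer. Its level in the arrays labelled cpc ttg2 was nearer egl3 than cpc. RHD6 lost its call without cpc replicate 3, egl3 replicate 2 or egl3 replicate 3 (adjusted p up to 0.155) and in the fit of the 6 arrays (0.137), and it kept it without the 4 dim arrays (-1.73, adjusted p = 0.0298). The other 3 measured root hair bHLH genes act after or beside RHD6 and were not called. RSL4 (AT1G27740) differed by -0.38 ± 0.46, LRL1 (AT2G24260) by -1.14 ± 0.57 and LRL3 (AT5G58010) by -0.51 ± 0.66, with overlapping arrays in each case. Replicate 3 of cpc was the lowest of all 6 arrays for all 4 genes. Without it, RSL4 and LRL3 turned to 0.05 and 0.23.

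**Figure D3:**
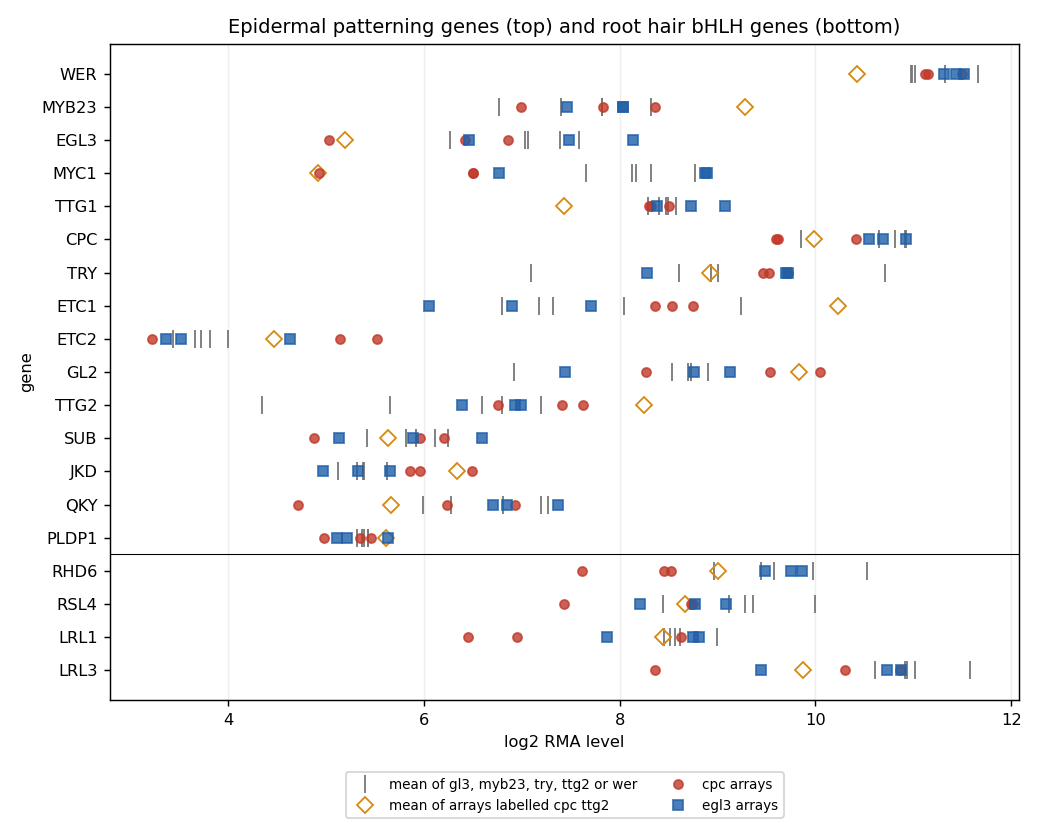
Log2 RMA levels (horizontal axis) of the 15 measured epidermal patterning genes (above the line) and the 4 measured root hair bHLH genes (below it), with symbols for arrays and lines given in the key. The arrays of cpc (red) and egl3 (blue) separate for MYC1, ETC1, CPC, JKD and RHD6 and overlap for the others.

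None of the listed genes that carry out hair growth was called. Of 35 measured tip growth genes 0 were called in limma, and of 23 hair wall genes also 0, beside 2.83% of all genes. At an unadjusted p under 0.05 there were 5 and 2, beside 4599 of all 21440 genes, a larger share. Calls this near 2.83% are no result about hair growth genes. The median difference was -0.11 in both lists, beside -0.02 over all genes, and turned to 0.03 and 0.04 when the arrays were centred. A tip growth gene was called higher in cpc with centring, among genes with a mean above 5, with trend and robust eBayes, without cpc replicate 1, with the replicate block and with dim controls as a block, and 3 were with array weights. A wall gene was called higher without egl3 replicate 1 and with array weights. The largest difference among the tip growth genes was that of RHS6 (AT1G51880), at 6.37, 6.50 and 4.27 in cpc and 4.26, 3.72 and 3.86 in egl3. The arrays were separate by a very small margin at cpc replicate 3, and the difference of 1.77 ± 0.67 did not pass (adjusted p = 0.148). The 5 other lines were all higher, at 6.45 to 7.06. Among the wall genes EXPA17 (AT4G01630), an expansin that loosens the cell wall, differed most (1.35 ± 0.46, adjusted p = 0.109), with egl3 uneven at 11.66, 9.17 and 11.13, and without egl3 replicate 1 it passed (adjusted p = 0.0324). Other hair markers went different ways without passing: EXPA7 differed by -0.53 ± 0.58, COBL9 by -0.58 ± 0.58 and EXPA18 by 0.79 ± 0.49. In the mean over the tip growth genes, cpc arrays stood at 9.43, 9.60 and 8.81 and egl3 arrays at 9.42, 9.09 and 9.63.

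Markers of other cells that the sort could hold were compared next, because in sorted bulk samples fewer cells of a type and less RNA per cell cannot be told apart. None of the 10 root cap, 16 endodermis and cortex, 18 stele or 7 photosynthesis genes was called in limma. Of these, 3, 3, 2 and 0 had an unadjusted p under 0.05, beside 4599 of all 21440 genes. The mean level over the root cap genes was 9.84, 9.79 and 10.24 in cpc and 9.63, 9.12 and 9.39 in egl3, so it was higher in every cpc array, and 9 of 10 differences were positive (median 0.61, largest CEL5 at 1.30 ± 0.54, adjusted p = 0.18). The endodermis and cortex genes averaged 4.82, 4.54 and 4.21 in cpc and 3.90, 3.87 and 4.19 in egl3, with 7 of 16 members under 4 in both lines and CASP5 the largest (1.52 ± 0.71, adjusted p = 0.221). The stele genes overlapped between the lines (4.66 to 5.07 and 4.63 to 4.89), 8 of 18 were under 4 in both, and the largest difference was that of SEOR1 (0.92 ± 0.64). The photosynthesis genes were low in both (3.83 to 4.17 and 4.17 to 4.36), with PSAD-1 at -0.79 ± 0.41. Mean levels of the root cap and endodermis lists were thus higher in every cpc array, the latter only just (4.21 against 4.19). The flavonoid, auxin and brassinosteroid calls below go in the same direction, and the part of both lists in those results was not tested. Without the 4 dim arrays, 1 root cap gene was called higher and 1 stele gene lower, and without egl3 replicate 1 also 1 stele gene lower. The replicate block and the block for dim controls each called 1 endodermis and cortex gene higher. Array weights called 4 endodermis and cortex genes higher and 1 lower, 1 stele gene lower and 2 photosynthesis genes lower.

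Of the 396 distinct genes in the 22 lists that were measured, 21 were called (5.3%, beside 2.83% of all genes), 16 higher in cpc and 5 lower. In the fit of the 6 arrays alone, 1 of them, BR6OX2, was called. The arrays labelled cpc ttg2 were nearer cpc for 14 of the 21 and nearer egl3 for 7. The lists were drawn up with earlier results of these data known, and the counts describe them without a test.

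**Figure D4:**
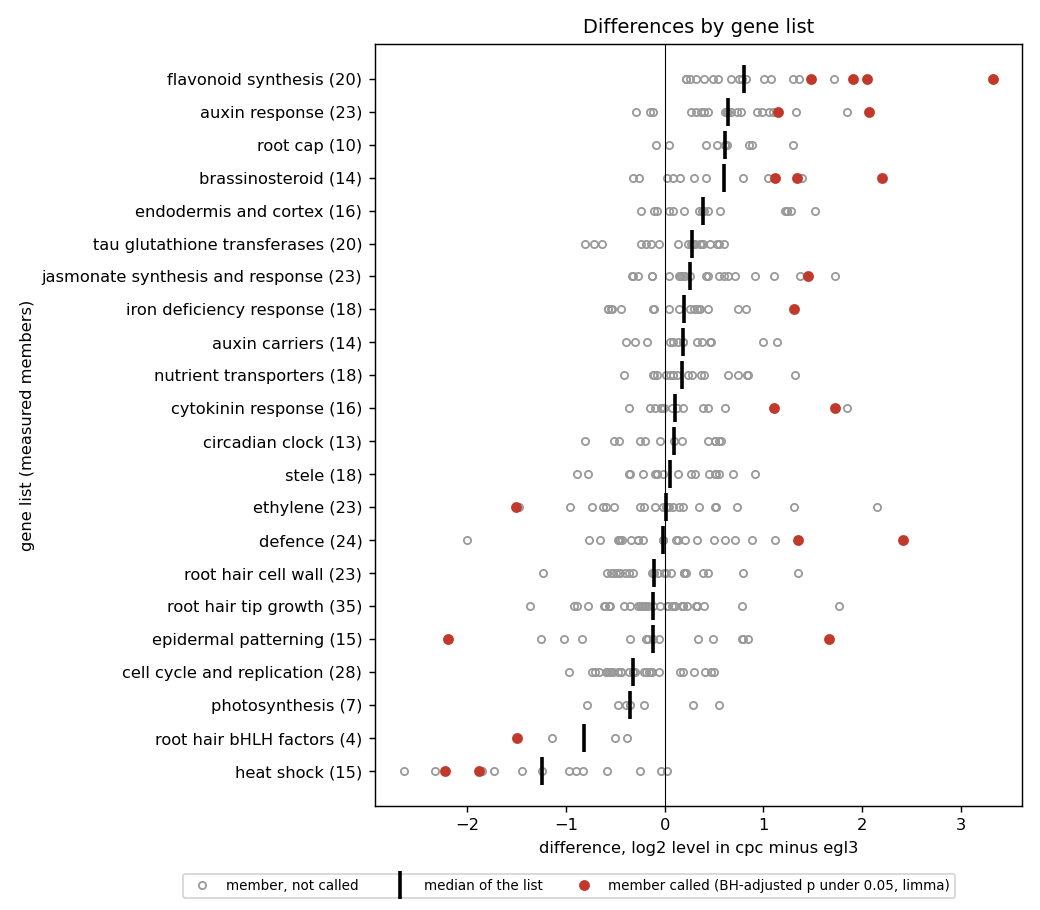
Difference between cpc and egl3 (horizontal axis, log2 level in cpc minus egl3) for each measured member of 22 gene lists, with called members in red, other members as open grey circles and the list median as a black bar. Flavonoid synthesis has the highest median (0.81, 4 of 20 called) and heat shock the lowest (-1.25, 2 of 15 called), beside 2.83% called of all genes.

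The flavonoid synthesis list held the most calls. Of 20 measured members, 4 were called, all higher (20%, beside 2.83% of all genes). By share, the brassinosteroid list (21.4%) and the 4 root hair bHLH genes (25%) held more. All 20 differences were positive, with a median of 0.81 beside -0.02 over all genes. FLS3 (AT5G63590), a relative of flavonol synthase, stood at 8.59, 8.64 and 9.65 in cpc and at 6.61, 5.06 and 5.23 in egl3 (difference 3.33 ± 0.53, 10.04-fold, adjusted p = 0.000917). FLS1 (AT5G08640), the main flavonol synthase, stood at 8.04, 8.57 and 7.94 against 6.51, 5.65 and 6.24 (2.05 ± 0.54, adjusted p = 0.0445). TT7 (AT5G07990), the flavonoid 3'-hydroxylase, stood at 5.71, 6.76 and 6.76 against 4.69, 4.15 and 4.67 (1.91 ± 0.45, adjusted p = 0.0237). All cpc arrays were above all egl3 arrays for the 3 genes, and the 5 other lines averaged 6.52, 6.75 and 5.07, nearer egl3 than cpc. MYB12, a MYB factor that activates flavonol genes and the remaining called member, was 1.48 ± 0.35 higher (adjusted p = 0.0269), but its 5 other lines averaged 8.89, near cpc (9.11). It lost its call without cpc replicate 2, cpc replicate 3 or egl3 replicate 2 (adjusted p up to 0.146). The arrays labelled cpc ttg2 were nearer cpc for all 4 genes, and without them the call of FLS1 ended. FLS3 held in all 6 runs that left out 1 array, while FLS1 lost its call in 5 of them (all but that without cpc replicate 1, adjusted p up to 0.146) and TT7 in 4 (without cpc replicate 2, cpc replicate 3, egl3 replicate 2 or egl3 replicate 3, up to 0.129). The number of called members ran from 1 to 5 over these runs and was 0 in the fit of the 6 arrays.

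The called heat shock genes were lower in cpc. Of 15 measured members 2 were called (13.3%, beside 2.83% of all genes), 14 of 15 differences were negative, and the median was -1.25. HSP18.2 (AT5G59720), a small cytosolic chaperone, stood at 5.72, 5.46 and 5.59 in cpc and at 7.47, 7.93 and 7.01 in egl3 (difference -1.88 ± 0.36, adjusted p = 0.00488). The 5 other lines lay between 6.59 and 7.13 and the arrays labelled cpc ttg2 at 6.79, nearer egl3. HSP23.6-MITO (AT4G25200), a small mitochondrial chaperone, stood at 4.81, 3.88 and 4.25 in cpc and at 7.29, 6.35 and 5.99 in egl3 (-2.23 ± 0.59, adjusted p = 0.0445), and it kept its call only without cpc replicate 1 among the 6 runs that left out 1 array (adjusted p up to 0.162), and not under either other array scaling or without the arrays labelled cpc ttg2, in which it averaged 5.82, nearer egl3. The mean level over the list was 7.44, 7.07 and 7.06 in cpc and 9.25, 8.20 and 7.91 in egl3, with egl3 replicate 1, a dim array, the highest. It was 8.67 in the arrays labelled cpc ttg2, above egl3, and between 7.76 and 8.12 in the other 5 lines. Without egl3 replicate 1 the median was -0.76 with 1 call, and without the 4 dim arrays it was -0.67 with 1 call. The count of calls, all lower, was 5 without cpc replicate 1, 1 without cpc replicate 3 or egl3 replicate 2, 6 with dim controls as a block, 6 with array weights, 3 with trend and robust eBayes and 0 in the fit of the 6 arrays.

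Hormone genes with calls were mostly higher in cpc. In the auxin response list 2 of 23 were called (8.7%, beside 2.83% of all genes), both higher, and the median was 0.64. GH3.5 (AT4G27260), which joins amino acids to auxin, stood at 9.70, 10.01 and 10.75 in cpc and at 7.92, 8.95 and 7.37 in egl3 (difference 2.07 ± 0.41, adjusted p = 0.0076). IAA19 (AT3G15540), a repressor that auxin induces, stood at 10.14, 10.60 and 10.29 against 8.79, 9.44 and 9.36 (1.15 ± 0.25, adjusted p = 0.0184). The lines did not overlap for either gene. GH3.5 lost its call without cpc replicate 3 or egl3 replicate 3 (adjusted p up to 0.0623) and IAA19 without cpc replicate 2, cpc replicate 3 or egl3 replicate 1 (up to 0.087). Of 14 auxin carriers 0 were called in limma (2 unadjusted, beside 4599 of all 21440 genes). PIN7 had the largest difference of them (1.14 ± 0.54, adjusted p = 0.23).

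Brassinosteroid genes with calls were enzymes of synthesis. Of 14 members 3 were called (21.4%, beside 2.83% of all genes), all higher, with a list median of 0.61. BR6OX2 (AT3G30180), a cytochrome P450 that carries out the last steps, stood at 6.98, 7.03 and 6.91 in cpc and at 4.78, 4.42 and 5.10 in egl3. This is a difference of 2.20 ± 0.28 (4.61-fold, adjusted p = 8.6e-05) with close cpc arrays, and BR6OX2 was at 6.92 in the arrays labelled cpc ttg2 and between 4.93 and 5.90 in the other 5 lines. ROT3 (AT4G36380), a cytochrome P450 of an earlier step, stood at 8.93, 8.90 and 8.96 in cpc and at 8.15, 7.60 and 7.68 in egl3 (1.12 ± 0.18, adjusted p = 0.00121). CYP90D1 (AT3G13730), which acts beside ROT3, was 1.34 ± 0.35 higher (adjusted p = 0.0456) and kept its call in 1 of the 6 runs that left out 1 array, that without egl3 replicate 1 (adjusted p up to 0.152 in the others). CYP90D1 averaged 3.80 in the arrays labelled cpc ttg2, below egl3 (4.23). BR6OX2 and ROT3 held in all 6.

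In the cytokinin list 2 of 16 were called (12.5%, beside 2.83% of all genes), and the median was 0.10. Both are type-A response regulators that cytokinin induces. ARR3 (AT1G59940) stood at 11.00, 10.47 and 10.66 in cpc and at 9.62, 8.57 and 8.77 in egl3 (difference 1.72 ± 0.29, adjusted p = 0.00192). The 5 other lines lay between 10.11 and 11.10, so egl3 lay below all of them, and the arrays labelled cpc ttg2 averaged 9.78. ARR7 (AT1G19050) was 1.11 ± 0.25 higher (adjusted p = 0.0177), and its call was lost without cpc replicate 3 or egl3 replicate 2 (adjusted p up to 0.0953). In the ethylene and jasmonate lists 1 of 23 was called in each (4.35%), which is near the share of all genes and is no result about these lists. The ethylene call was RTE1 (AT2G26070), a membrane protein that promotes ethylene receptor function. RTE1 stood at 7.67, 6.51 and 6.13 in cpc and 8.53, 7.95 and 8.33 in egl3 (-1.51 ± 0.40, adjusted p = 0.0459). It lost its call in 5 of the 6 runs, all but that without cpc replicate 1 (adjusted p up to 0.262), under both other array scalings and without the arrays labelled cpc ttg2. The jasmonate call was JAZ8 (AT1G30135), a repressor of jasmonate response, at 9.97, 9.08 and 9.97 in cpc and 8.02, 7.68 and 8.96 in egl3 (1.46 ± 0.39, adjusted p = 0.0477). JAZ8 lost its call without cpc replicate 1, cpc replicate 3, egl3 replicate 1 or egl3 replicate 2 (up to 0.22), and without the arrays labelled cpc ttg2.

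A defence peptide precursor and its receptor were both higher in cpc. Of 24 defence genes 2 were called (8.33%, beside 2.83% of all genes), and the list median was -0.02. PROPEP1 (AT5G64900), the precursor of a peptide released on damage, stood at 10.58, 9.11 and 9.36 in cpc and at 7.38, 8.04 and 6.39 in egl3 (difference 2.41 ± 0.49, 5.32-fold, adjusted p = 0.00994). Its 5 other lines lay between 5.99 and 7.26 and the arrays labelled cpc ttg2 at 9.36, and it lost its call without egl3 replicate 3 (adjusted p = 0.0651). PEPR1 (AT1G73080), the receptor kinase that binds the peptide, stood at 10.71, 11.09 and 11.34 in cpc and at 9.51, 10.02 and 9.55 in egl3 (1.35 ± 0.25, adjusted p = 0.00454) and held in all 6 runs that left out 1 array.

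Nutrient, growth, detoxification and clock lists held 0 or 1 call each, which is near the 2.83% of all genes for lists of this size and is no result about them. The call was in the iron deficiency list of 18, IRT1 (AT4G19690), the iron transporter of the root epidermis, at 4.76, 3.51 and 4.03 in cpc and 2.71, 2.88 and 2.78 in egl3 (1.31 ± 0.31, adjusted p = 0.0255). All of these are low levels, the arrays labelled cpc ttg2 averaged 3.27, and IRT1 lost its call in 5 of the 6 runs, all but that without cpc replicate 2 (adjusted p up to 0.0845). None of the 18 nutrient transporters was called in limma (5 unadjusted, beside 4599 of all 21440 genes). NRT3.1, a partner of nitrate transporters, had the largest difference at 1.32 ± 0.42 (adjusted p = 0.0929) and passed without egl3 replicate 1 (0.0332). A nutrient transporter was also called higher with the replicate block, with dim controls as a block and without the 4 dim arrays, and array weights called 4 higher. None of 28 cell cycle genes was called (2 unadjusted), with 22 of 28 differences negative, a median of -0.32 and MCM2, a replication licensing factor, the largest at -0.97 ± 0.42 (adjusted p = 0.193). Without cpc replicate 3 that median was 0.00, and array weights called 2 cell cycle genes lower. Of 20 tau glutathione transferases and 13 clock genes 0 were called (2 of each list unadjusted), and the largest differences were those of GSTU20 (-0.81 ± 0.70) and PRR7 (-0.81 ± 0.27, adjusted p = 0.11).

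The calls were spread unevenly over the genome. By chromosome, 112 of 5498 measured genes were called on chromosome 1 (2.04%), 94 of 3476 on chromosome 2 (2.7%), 86 of 4233 on chromosome 3 (2.03%), 140 of 3151 on chromosome 4 (4.44%) and 173 of 4864 on chromosome 5 (3.56%). On chromosome 5, 57 were higher and 116 lower in cpc, and on chromosome 3, 58 were higher and 28 lower. Cut into windows of 100 measured genes in gene order, a size chosen after the data were seen, 209 full windows held a median of 2 calls, 39 windows held 0, and 16 held 8 or more. Of those 16, chromosome 4 held 8, chromosome 5 held 6, and chromosomes 1 and 2 held 1 each, and the fullest, with 14 calls, ran from AT5G43700 to AT5G44785. In it, gl3, myb23, try, ttg2 and wer were all nearer egl3 for 8 of the 14 genes. Among called genes, 54 pairs were next to each other in gene order and 41 of these moved one way, as AT5G51620 and AT5G51630 did.

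The surroundings of the mutated genes were read at 2 scales. Among the 20 measured genes on each side of CPC, on chromosome 2, 0 of 40 were called in limma. Of the 40, 11 had an unadjusted p under 0.05, beside 4599 of all 21440 genes. Arrays did not overlap for 11 of the 40, beside 21.5% of all genes. Around EGL3, on chromosome 1, 1 of 40 was called, and beside 2.83% of all genes neither count is a result about these neighbourhoods. The gene was AT1G63540, at 2.93, 2.86 and 3.19 in cpc and 4.29, 6.47 and 6.11 in egl3 (difference -2.63 ± 0.40, adjusted p = 0.000615). The other 5 lines lay between 2.98 and 3.69, and the arrays labelled cpc ttg2 averaged 4.19, so the egl3 mean (5.62) was the highest of the 8 lines.

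Counts in the wider windows were as follows. The window of 100 measured genes that holds EGL3 had 6 calls, and the windows on each side had 7 and 6. The window that holds CPC had 1 call, with 4 in the window before it. The window after it, the last of chromosome 2 with 76 genes, had 5 (6.58%). For 5 of the 6 in the window that holds EGL3, the lines gl3, myb23, try, ttg2 and wer were all nearer cpc. Calls of this kind lay unevenly over 12 windows of chromosome 1, from AT1G48200 to AT1G65580, a stretch chosen after its values were seen. They were 2 of 7 in the window from AT1G61900 to AT1G63160 and 0 of 1 in that from AT1G60590 to AT1G61890. In the window from AT1G58200 to AT1G60570 they were 7 of 7. Of 1200 measured genes in the 12 windows 58 were called (4.83%, beside 2.83% of all genes). For 34 of them the 5 lines were all nearer cpc, out of 77 such genes in the genome. For 0 of the 58 were the 5 lines all nearer egl3. Most of the other genes with all 5 lines nearer cpc lay on chromosome 4, which holds neither mutated gene. The windows from AT4G12120 to AT4G13520, AT4G16800 to AT4G17870 and AT4G17880 to AT4G19045 held 4 each. CYP705A27, AT1G51430 and CYP89A5, described above as low in egl3, lie in the stretch of chromosome 1. ARR3, also described above, and MYB50, XTH17, PME2 and MMH-1, named below, lie in it too.

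**Figure D5:**
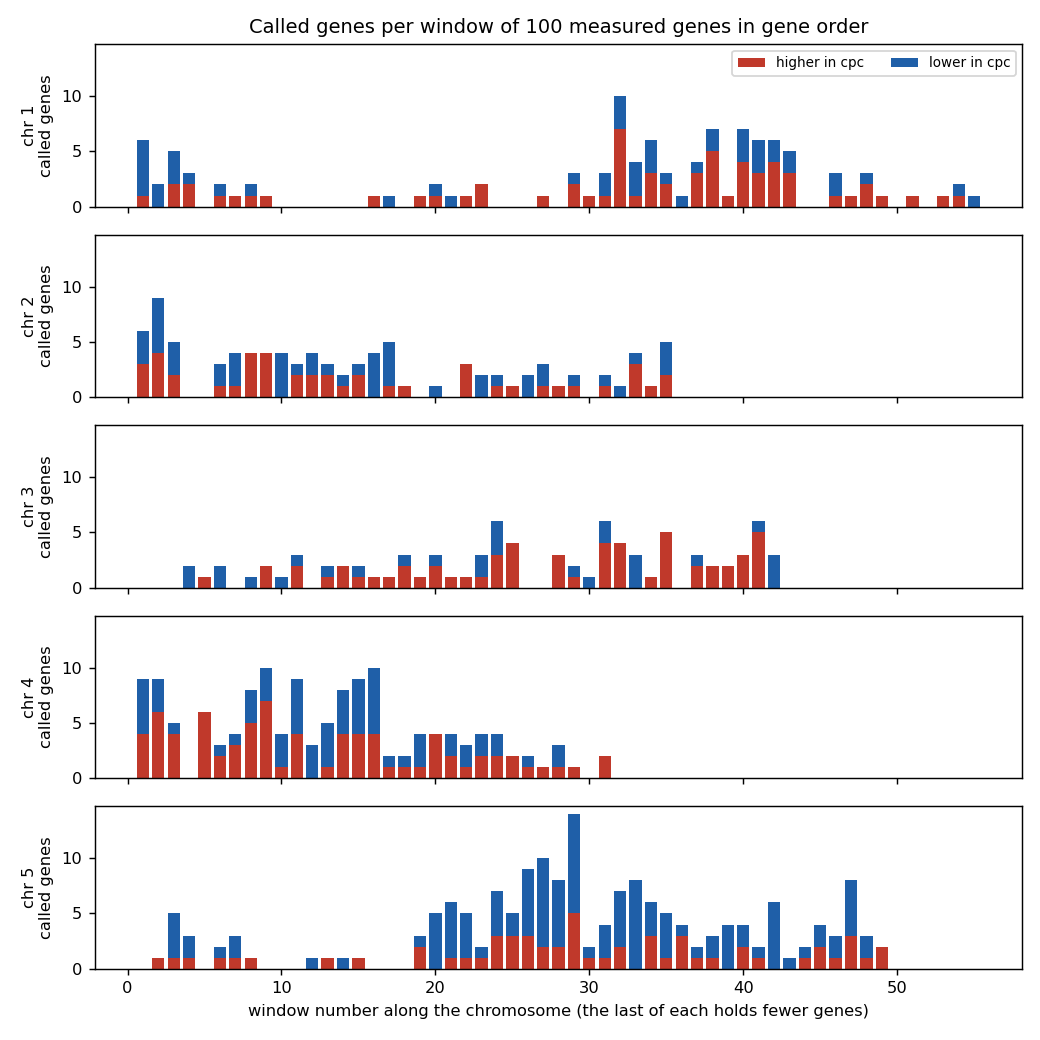
Called genes (vertical axis, count, red higher and blue lower in cpc) in successive windows of 100 measured genes (horizontal axis, window number) on each of the 5 chromosomes. Windows with 8 or more calls lie mostly on chromosomes 4 and 5, where the fullest holds 14, and 39 windows hold 0.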

How the data were processed

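Sorted cells gave total RNA and biotin-labelled cRNA for Affymetrix arrays, per the labels. The authors deposited 1 table of log2 values from RMA, per the submitters' processing notes. RMA corrects background and summarises probes, and it compresses differences between dim genes. Array type, probe set definition and RMA version: not given in the sources used here. Of 21504 entries, 64 controls were left out. Symbols came from a RefSeq table of TAIR10.1, used for names and gene order only (21222 of 21440 codes matched).

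With limma 3.58.1 (lmFit, eBayes; R 4.3.3), all 24 arrays entered 1 fit with a mean for each line. Tests were 2-sided, with BH adjustment over 21440 genes. The fit was tested on simulated data. Counts were made with Python and pandas.

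The comparison, gene lists and named genes were chosen with earlier results of these data known. The 22 lists held 456 entries, of which 397 were measured. Named were the 8 largest non-overlapping calls per direction, all patterning and hair bHLH members, up to 3 called members per direction of other lists (or else the largest difference), and calls beside CPC and EGL3. MYB12, EXPA7, EXPA18 and COBL9 fall outside this rule and were named after their values were seen. Alternatives were the arrays fitted, the replicate number as a block, 2 array scalings, a filter on dim genes, the variance prior, array weights and each array left out. Grouping by hybridisation controls was added after the data were seen.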

Additional observations from a re-analysis of the deposited data

How the results depend on the processing

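Settings other than those in the report moved counts as follows. Fitting the 6 arrays alone gave 88 calls (51 higher, 37 lower), 88 without overlap, 1 in the lists and 0 beside CPC and EGL3. With the replicate number as a block there were 754 calls, with 3 beside CPC and EGL3, and with that replicate block in the 6 arrays 64 (39 higher, 25 lower), 63 without overlap, 1 in the lists and 0 beside the mutated genes. Deviations of same-numbered arrays correlated at 0.42 for replicate 1, -0.06 for replicate 2 and 0.04 for replicate 3. The replicate 1 arrays of both lines, which are dim, thus deviated together, and those of replicates 2 and 3 did not. Deviations of cpc replicate 2 and egl3 replicate 3 correlated at 0.37. Of the named calls, the replicate block over all 24 arrays ended those of ETC1, MYC1 and HSP23.6-MITO. Array weights gave 3605 calls (1435 higher, 2170 lower), 2230 without overlap, 71 in the lists and 9 beside CPC and EGL3, and called CPC (-1.02) and EGL3 (-1.37), but the estimate of the weights stopped before it converged. Genes with a mean above 5 gave 706 calls and 0 beside CPC and EGL3. Without the 4 dim arrays there were 1223 (532 higher, 691 lower), 1223 without overlap and 3 beside the mutated genes, as also with dim controls as a block. Leaving out 1 array in turn gave 232 to 1958 calls (139 to 692 higher, 93 to 1266 lower), 232 to 1949 without overlap, 7 to 31 in the lists and 1 to 5 beside CPC and EGL3, with CPC from -1.11 to -0.70, called only without cpc replicate 1. Among the 64 named genes, 37 were called and 23 of these held in all 6 such runs. Signs turned only for genes not called. Over these runs MYB23 ran from -0.43 to 0.25, PLDP1 from -0.16 to 0.10, TRY from -0.15 to 0.58, SUB from -0.56 to 0.21, RSL4 from -0.623 to 0.0518 and LRL3 from -1.02 to 0.23. In other settings, MYB23 turned to 0.0327 on centring and 0.0486 on quantile normalization, PLDP1 to 0.0940 on centring, 0.114 with array weights and 0.0344 without the dim arrays, and TRY to -0.0246 with array weights. The causes were not tested.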

Other observations

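Several further groups stood out among the called genes. They were picked after their values were seen, because their members were called, so their counts support nothing. Beyond the flavonoid list, 6 enzymes of phenylpropanoid and flavonol metabolism were higher in cpc. PAL2, which opens the phenylpropanoid pathway, stood at 8.27, 8.49 and 9.25 in cpc and at 6.87, 6.86 and 5.02 in egl3 (difference 2.42, adjusted p = 0.00282). UGT84A2, a glucosyltransferase, was 2.92 higher (adjusted p = 0.000186), and CHIL, a chalcone isomerase-like protein, 2.16 (adjusted p = 0.00143). CYP98A3 (1.68), ATCAD4 (2.10) and OMT1 (0.88) complete the group, of which 3 members held in all 6 runs that left out 1 array. Among 194 measured genes with a CYP symbol, 8 were higher in cpc and 0 lower (4.12%, beside 2.83% of all genes), including CYP71B10 (3.41) and CYP707A1 (1.72), which breaks down abscisic acid. Among 116 measured genes with a MYB symbol, 4 were called, all higher (3.45%, beside 2.83% of all genes), which is no result about MYB genes. MYB50 was the largest of the 4, at 10.08, 10.04 and 9.31 in cpc and 6.27, 5.51 and 5.51 in egl3 (4.05, adjusted p = 2.36e-07). For MYB50, gl3, myb23, try, ttg2 and wer were all nearer cpc, and the gene lies in the chromosome 1 stretch described above, which holds EGL3.

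Genes of auxin synthesis and early response were also higher, with YUC5 (1.38), YUC9 (1.14), HAT2 (1.51) and AIR1 (1.06), and so were the cyclin-dependent kinase inhibitors KRP2 (2.38, adjusted p = 0.00145) and ICK1 (1.22). Cell wall genes higher in cpc included XTH17 (1.80), PME2 (1.56) and IRX14-L (1.73), the last of these held in all 6 runs. Among genes lower in cpc were 6 with roles in DNA repair. BRCA1 stood at 6.06, 6.11 and 5.16 in cpc and at 8.08, 8.38 and 8.60 in egl3 (-2.58, adjusted p = 0.00236) and held in all 6 runs, while XRCC2 (-1.48), MUS81 (-1.39), RecQl3 (-1.27), XRI1 (-1.30) and MMH-1 (-1.10) did not. DMC1, a recombinase, was higher (1.44). The plastid genes LIL3:1 (-2.23, adjusted p = 1.05e-06), LIL3:2 (-2.32) and TOC33 (-1.68), which encodes a receptor for protein import, were lower and held in all 6 runs. Of the 41 distinct genes in these groups, named here or not, 15 held in all 6 runs, 37 with each array centred, 35 after quantile normalization and 7 in the fit of the 6 arrays alone.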
